A study of Mus musculus with 4 samples.

Results

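Immature, non-cycling neutrophils filled with secondary granule transcripts were examined in the bone marrow of 5TMM myeloma mice. Members were selected on raw UMI counts (unique molecular identifiers, 1 per captured RNA molecule): a cell was taken when it held at least 10 UMIs of Ltf and of Ngp, at most 2 of Fcnb, none of Mki67, Top2a, Cxcr2 or Csf1r, and at most 2 of Ifit1 and Ifit3 together. This gate kept 994 of 39743 cells. The vehicle mice contributed 136 and 171 of them, and the mice given PM 387 and 300. PM is purinostat mesylate, an inhibitor of class I and IIb histone deacetylases (HDACs). All 4 mice were of the C57BL/KawRij strain and had received 5TGM1-luc myeloma cells intravenously at 6 weeks of age. After 3 weeks, 2 mice were given vehicle and 2 were given PM at 10 mg/kg, and total marrow was taken 24 h later. Erythrocytes were lysed and no cell type was sorted. Both groups carried myeloma, and marrow of mice without tumour was not analysed here.

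Neutrophils are made in the marrow in ordered steps. Dividing promyelocytes fill primary (azurophil) granules with elastase and myeloperoxidase. Myelocytes and metamyelocytes then make the secondary (specific) granule proteins lactoferrin (Ltf), cathelicidin (Camp), neutrophilic granule protein (Ngp) and lipocalin-2 (Lcn2), and leave the cell cycle. Gelatinase granule proteins, the chemokine receptor Cxcr2 and inflammatory mediators such as Il1b come last. The gate was meant to hold the middle step.

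The condition on Cxcr2 set the size of the population. Of the kept cells, 14819 had enough Ltf, 14786 also enough Ngp, 11158 few enough Fcnb UMIs and 9111 no Mki67 or Top2a UMI, and 1023 of those had no Cxcr2 UMI. The conditions on Csf1r and on the interferon genes took away few more cells. The threshold on Ltf mattered little: 21 members had 10 to 14 Ltf UMIs, and 18 cells with 5 to 9 met all other conditions. The gate asks for the absence of a UMI, so shallow cells pass it more easily, and the libraries differed in depth. The median member of the vehicle mice had 4712.5 and 6848 UMIs, and that of the PM mice 4529 and 4532.5.

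Members made up 1.47% of kept cells in vehicle mouse 1 (95% Clopper-Pearson interval 1.23 to 1.73%, counting error only) and 2.19% in vehicle mouse 2 (1.87 to 2.53%). In PM mouse 1 the share was 2.89% (2.61 to 3.19%), and in PM mouse 2 it was 3.24% (2.89 to 3.62%). Both PM mice were above both vehicle mice, with means of 3.06% ± 0.244 (SD, n = 2) and 1.83% ± 0.507 (SD, n = 2). An exact two-sided permutation test gave p = 0.333, the smallest p that 2 mice against 2 allow. The order was lost at equal depth. When the 5543 to 9202 cells per mouse with at least 3000 UMIs were thinned to that number before gating, the vehicle mice had shares of 6.04% and 9.16%, against 8.94% and 8.66% with PM. For this gate the limits were set at 6 UMIs of Ltf and of Ngp and 1 of Fcnb, and the others were left unchanged. Among cells that met every other condition, a Cxcr2 UMI was lacking in 6.28% and 12.7% with vehicle, against 13.9% and 13.1% with PM. Thinned to 2000 UMIs, these became 29.2% and 40.1% against 40.04% and 35.5%, so only vehicle mouse 1 stood apart. Without the Cxcr2 condition the vehicle mice had 23.4% and 17.2% of kept cells in the population, against 20.8% and 24.8% with PM.

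**Figure D1:**
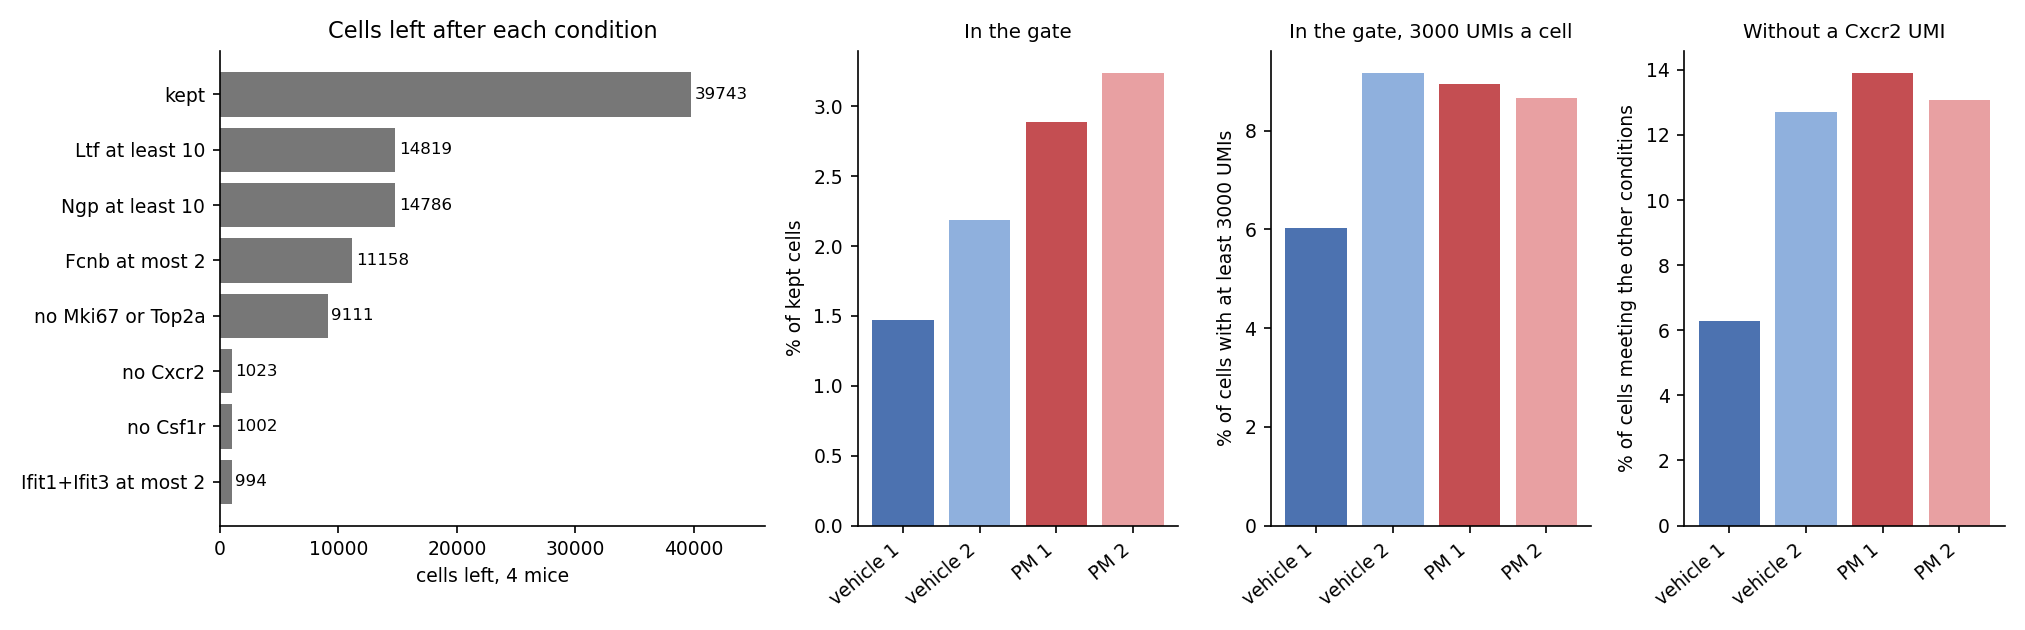
Left, cells of the 4 mice left after each condition of the gate in turn (number of cells). Right, 1 bar per mouse: members as a percentage of kept cells, cells in the gate after thinning to 3000 UMIs as a percentage of cells with at least that many, and cells without a Cxcr2 UMI among those meeting all other conditions. Both PM mice are above both vehicle mice in the unthinned share (2.89% and 3.24% against 1.47% and 2.19%) and not in the thinned one.

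The 4 libraries shared 18 to 39 barcodes per pair, and no member barcode was shared. Called doublets made up 0.735% and 1.17% of vehicle members, against 3.10% and 1.00% of PM members.

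The members carried the label markers that the gate did not use. After thinning to 2000 UMIs, Camp and Lcn2 were found in 100% of members in every mouse, and Cd177, a surface glycoprotein of neutrophils, in 97.0 to 99.2%. Free RNA in the droplets gives such UMIs to other cells too. Barcodes outside the gate with at least 2 UMIs each of the B cell genes Cd79a and Cd79b, of median depth 2321 to 2771 UMIs and thinned alike, held a Camp UMI in 31.9 to 49.6%, a Lcn2 UMI in 13.98 to 28.7% and a Cd177 UMI in 2.33 to 6.38%. Their mean was 0.947 to 1.89 Camp UMIs, against 59.7 to 79.5 in members. Ly6g, the antigen used to sort mouse neutrophils, was found in 69.2% and 65.4% of vehicle members and in 87.8% and 82.5% of PM members, against at most 3.06% of the B cell barcodes. Elane, neutrophil elastase of the primary granule, was found in at most 1.96% of vehicle members and in 5.26% and 2.99% of PM members. The B cell barcodes had 2.66% and 2.58% with vehicle and 11.6% and 5.65% with PM, so Elane in members was not above the background. Cycling precursors (cells with Fcnb, Ngp and Mki67 or Top2a UMIs) had 43.6% and 38.7% against 58.3% and 59.5%. Il1b, an inflammatory cytokine of mature cells, was found in at most 2.61% of members, in 0.705 to 4.79% of the B cell barcodes and in at least 41.1% of gated mature neutrophils (cells with Cxcr2 but few Ltf UMIs). On the CPM scale (UMIs of a gene divided by all UMIs of the pooled cells, scaled to 1e6), Camp averaged 34338 ± 3679 (SD, n = 4 mice) in members and 1040.2 ± 546 in mature cells. Mmp9, the gelatinase, averaged 2166 ± 206 in members, 47.1 ± 9.37 in cycling precursors and 4003 ± 289 in mature cells. Cebpe, the transcription factor needed for secondary granules, stood at 517 ± 86.7 in members, 524 ± 15.1 in precursors and 51.3 ± 26.0 in mature cells. These populations were cut by gates on the same cells, so the levels are a description.

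The closest population was the one that met every condition but had at least 1 Cxcr2 UMI. Its Camp, at 23046 ± 2283 CPM, was below that of members. Its Mmp8, neutrophil collagenase, was at 3593 ± 271 CPM against 1760.1 ± 738, and its Retnlg, a resistin-like protein of maturing neutrophils, at 10273 ± 1127 CPM against 2686 ± 1110. In all 4 mice members lay on the earlier side of that population for these 3 genes.

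**Figure D2:**
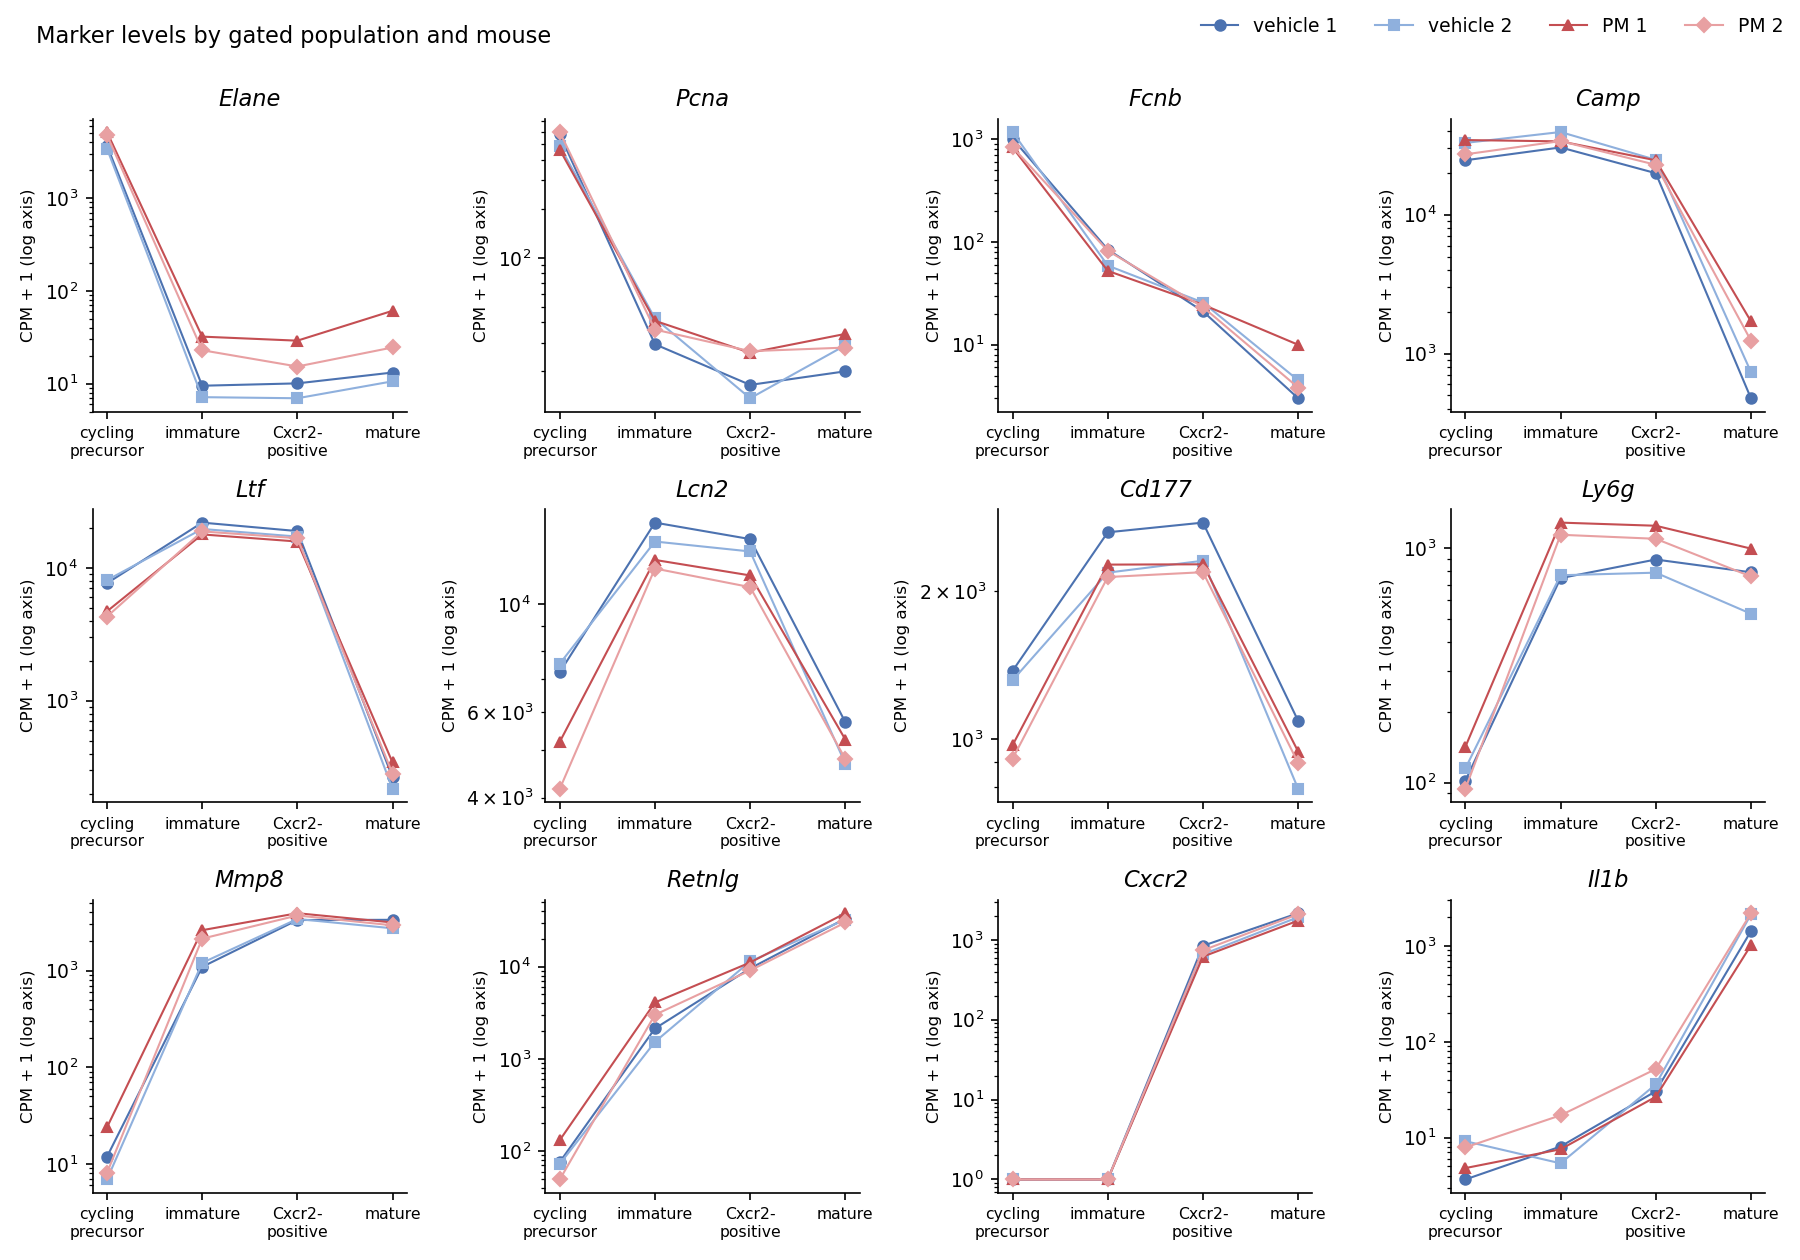
CPM + 1 (log axis) of 12 marker genes in cycling precursors, members (immature), Cxcr2-positive cells meeting the other conditions and mature neutrophils, with 1 line and symbol per mouse. Elane and Pcna drop after the precursors, Lcn2 is highest in members in every mouse, Camp in all but PM mouse 1, where precursors are higher, and Cxcr2, at 0 in precursors and members by the gate, is highest in mature cells.

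Members were not uniform. Among members thinned to 2000 UMIs, Camp fell as Retnlg rose, with Spearman correlations over cells of -0.49 and -0.34 with vehicle and of -0.54 and -0.58 with PM. Mmp8 and Retnlg went together, at 0.52, 0.58, 0.62 and 0.56 in the same order. The genes come from the same thinned cells, so these values are descriptive. Members with neither a Retnlg nor a Mmp8 UMI made up 19.2% and 28.8% of vehicle members, against 11.4% and 14.2% of PM members. Members with at least 5 Retnlg UMIs made up 29.2% and 19.0% against 42.9% and 35.8%. The groups did not overlap on either measure. Both sets are defined by Retnlg and Mmp8, whose own levels were higher in PM members, and Mmp9 stood at 2302 and 1859 CPM with vehicle against 2246 and 2256 CPM with PM. In vehicle mouse 1, the cells without Retnlg or Mmp8 had a mean of 72.5 Camp UMIs and the cells with at least 5 Retnlg UMIs 42.0, and the order was the same in the other 3 mice. Orm1, orosomucoid-1, had means of 0.478 and 0.341 UMIs with vehicle and of 0.268 and 0.158 with PM in the cells without Retnlg or Mmp8. In the cells with at least 5 Retnlg UMIs its means were 0 and 0.069 with vehicle, against 0.00645 and 0.0104 with PM.

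Few genes filled the transcriptome. S100a8 and S100a9, the calprotectin subunits, took 13.8% ± 1.39 and 13.6% ± 1.52 of all UMIs (SD, n = 4 mice). Ngp followed with 4.56% ± 0.461, Camp with 3.43% ± 0.368, Ltf with 1.95% ± 0.173 and Lcn2 with 1.31% ± 0.128. None of the tested genes among these was called between PM and vehicle.

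UMIs were summed over the members of each mouse, and PM was compared with vehicle by the quasi-likelihood test of edgeR with Benjamini-Hochberg adjustment. A gene was called at an adjusted p under 0.05 and a log2 fold change over 0.5 in size. The gate genes were left out, and 6793 genes were tested. PM members had 107 genes called higher, 1.58% of those tested, and 22 called lower, 0.324%, or 129 in all (1.9%). The median member held 0.837% and 0.864% mitochondrial UMIs and 1504.5 and 1778 detected genes with vehicle, against 1.06% and 1.18% and 1372 and 1439.5 genes with PM. The groups did not overlap on either measure, and the part of these in the fold changes was not tested. Interferon-stimulated genes and the linker histone genes H1f0 and Hist1h1c were among the rises, and genes of sterol synthesis among the falls. The median log2 fold change over all genes tested was -0.01. Each fold change is a difference in the RNA of the pooled cells, and more cells at a later stage and more RNA per cell cannot be told apart in such sums. DESeq2 called 24 higher and 4 lower, of which 22 and 3 were shared, and without PM mouse 1 the counts were 56 and 25. Genes called lower were 37 without vehicle mouse 1 and 34 without PM mouse 2. Without the Cxcr2 condition, with many more cells, 694 were called higher and 242 lower, among them 68 of the 107 and 16 of the 22.

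**Figure D3:**
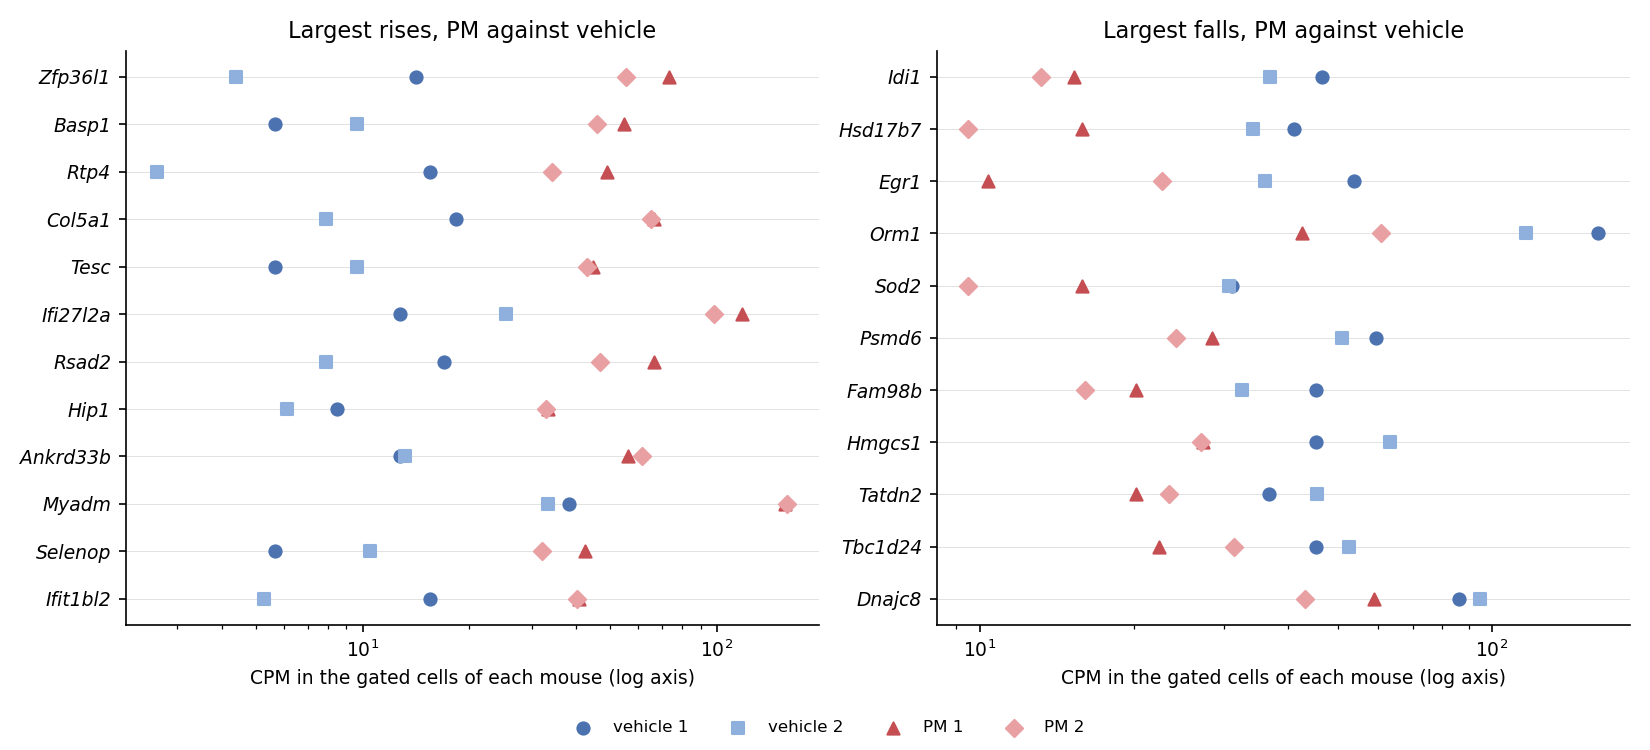
CPM (log axis) in the members of each mouse for 12 of the largest rises and 11 of the largest falls among called genes that averaged 20 CPM or more, hemoglobin genes left out. Circles and squares are vehicle mice, triangles and diamonds PM mice. Both PM mice lie on one side of both vehicle mice for every gene, as the rule for naming them required.

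Idi1 and Hsd17b7, genes of the mevalonate and sterol pathway, which makes cholesterol and isoprenoids, had the largest falls on the log2 scale of the called genes that averaged 20 CPM or more. Idi1 makes the isoprenoid building block dimethylallyl diphosphate and lies at chr13:8885501-8892451 (GRCm38, GENCODE M21, plus strand). It stood at 46.7 and 36.8 CPM with vehicle and at 15.3 and 13.2 CPM with PM. The vehicle mice were both higher, and edgeR gave a log2 fold change of -1.57 ± 0.305 (SE, adjusted p = 0.00127). Hsd17b7, a 3-ketosteroid reductase of cholesterol synthesis, stood at 41.0 and 34.2 CPM against 15.8 and 9.499 CPM, a log2 fold change of -1.56 ± 0.329 (adjusted p = 0.00342). Hmgcs1, which makes HMG-CoA, stood at 45.2 and 63.2 CPM against 27.3 and 27.0 CPM, a log2 fold change of -1.09 ± 0.254 (adjusted p = 0.00949). Mice that do not overlap were part of the rule for naming these genes, and of all genes tested 14.1% were lower and 23.4% higher in PM without overlap.

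A list of 22 genes of sterol synthesis was drawn up after these values were seen and is given as a description only. Of its 12 members tested, 3 were called lower and none higher, 9 had a negative log2 fold change, and the median was -0.51. Over all genes tested 0.324% were called lower and 1.58% higher, and the median was -0.01. Msmo1, a methylsterol oxidase, stood at 99.0 and 81.6 CPM against 50.2 and 65.8 CPM and missed the threshold with an adjusted p of 0.0549 by edgeR. The summed level of the list was 481 and 417 CPM with vehicle and 276 and 306 CPM with PM. DESeq2 called none of the 3 (adjusted p = 0.215, 0.36 and 0.85 for Idi1, Hsd17b7 and Hmgcs1), with log2 fold changes of -1.61, -1.61 and -1.10. Hmgcs1 was also not called without vehicle mouse 2 or without PM mouse 1. The 3 calls held when members with UMIs of other cell types were left out, and each fold change was as large or larger without the Cxcr2 condition (Idi1 -1.76, Hsd17b7 -1.91, Hmgcs1 -1.28).

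The promoter of Hmgcs1 is shown because it alone, of the 9 tested genes of the list with a RefSeq promoter entry, held the sterol regulatory element letters TCACNCCAC on either strand within 250 bases before its start. These letters occur in 1.05% of all RefSeq promoters of that length. The stretch lies at chr13:119690194-119690253 (GRCm38.p6, plus strand), with the match in capitals.
Hmgcs1: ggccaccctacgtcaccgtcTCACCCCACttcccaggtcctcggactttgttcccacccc

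Several interferon-stimulated genes rose. Such genes are switched on through the transcription factor complex ISGF3 and encode antiviral effectors. Of 60 listed genes, 41 were tested beside the gate genes, 9 were called higher and none lower, and 39 had a positive log2 fold change. Of all genes tested, 1.58% were called higher and 0.324% lower, and 48.7% had a positive log2 fold change. The median of the 41 was 0.69, against -0.01 over all genes tested. Isg15, Slfn5 and Zbp1 were at most at 5.66 CPM with vehicle, and the low-count filter could admit them through the PM mice alone. Rtp4, Rsad2, Oasl2 and Ifit1bl2 were at 7.89 CPM or less in vehicle mouse 2, so the vehicle mice alone could not have passed them either. Every cell with more than 2 UMIs of Ifit1 and Ifit3 had been left out by the gate, so these were cells below that limit. Rsad2, viperin, lies at chr12:26442746-26456452 (GRCm38, minus strand) and stood at 16.97 and 7.89 CPM with vehicle and at 66.6 and 46.8 CPM with PM. Both PM mice were higher, and the log2 fold change was 2.26 ± 0.336 (edgeR, adjusted p = 4.55e-05). Ifi27l2a, a small mitochondrial protein gene, stood at 12.7 and 25.4 CPM against 118 and 97.9 CPM, a log2 fold change of 2.35 ± 0.262 (adjusted p = 6.24e-07). Rtp4, a receptor-transporting protein, stood at 15.6 and 2.63 CPM against 49.1 and 34.3 CPM. Zbp1, a sensor of Z-form nucleic acid, stood at 5.66 and 2.63 CPM against 21.3 and 21.9 CPM. Slfn5, a Schlafen gene, Oasl2, Oas2 and Oas3 of the oligoadenylate synthetase family, and Isg15, the ubiquitin-like modifier, were also called, with log2 fold changes of 2.84, 1.71, 1.04, 0.98 and 2.26. The RNA helicase gene Ddx60 was called too (31.1 and 28.1 CPM against 85.2 and 65.8 CPM) and Ifit1bl2 rose from 15.6 and 5.26 to 40.9 and 40.2 CPM. Ifitm3, the most abundant member of the list, stood at 782 and 583 CPM against 991 and 691 CPM and was not called. Without the Cxcr2 condition the calls of Oasl2, Rtp4, Oas2 and Oas3 were lost, without members holding UMIs of other cell types those of Oas2 and Isg15, and with the gate at 3000 UMIs per cell those of Rsad2, Ifi27l2a, Oas2 and Oas3 (edgeR, adjusted p = 0.108, 0.0868, 0.168 and 0.0567), at log2 fold changes of 1.91, 1.80, 0.89 and 0.68 against 2.26, 2.35, 1.04 and 0.98. DESeq2 called only Ifi27l2a and Rsad2 of the 9. Its log2 fold changes for Rtp4, Zbp1, Oasl2 and Oas3 were 2.28, 2.38, 1.66 and 0.94, against 2.38, 2.41, 1.71 and 0.98 by edgeR. The log2 fold changes of Ifi27l2a, Zbp1 and Isg15 shrank to 1.00, 0.89 and 0.92 without the Cxcr2 condition. All these genes were low, and none of the called list members passed 120 CPM in any mouse.

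Promoters of 3 called genes are shown because each carries the letters of the interferon-stimulated response element, 2 copies of GAAA with any 2 bases between them, searched on both strands in the 250 bases before the start. Of the 33 tested list members with a RefSeq promoter, 12 held the letters, 36.4%, against 3.39% of all genes tested. Of the 5 called members in the table, 4 held them. The stretches (GRCm38.p6) lie at chr4:156200857-156200916 for Isg15, chr5:120777695-120777754 for Oas3 and chr12:26456533-26456592 for Rsad2, all on the minus strand, and capitals mark the matches. Overlapping matches in Isg15 are joined in a single run, and the match in Rsad2 is on the opposite strand.
Isg15: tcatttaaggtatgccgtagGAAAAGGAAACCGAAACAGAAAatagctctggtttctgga
Oas3: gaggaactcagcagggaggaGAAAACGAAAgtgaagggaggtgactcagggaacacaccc
Rsad2: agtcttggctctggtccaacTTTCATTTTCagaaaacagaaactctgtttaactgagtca

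Most secondary granule genes, like most genes tested, were not called between PM and vehicle. Of 20 listed genes tested, 2 were called higher (Mmp8, Ceacam10) and 1 lower (Orm1), against 1.58% and 0.324% of all genes tested. A positive log2 fold change was found for 5, against 48.7% of all genes tested, and the median was -0.17. The call of Ceacam10 was lost without the Cxcr2 condition (log2 fold change 0.35 against 0.88, adjusted p = 0.107 by edgeR). DESeq2 did not call it either (0.86, adjusted p = 0.357). Ltf and Ngp, used by the gate, stood at 21892 and 19610.0 CPM against 17841 and 18796 CPM, and at 45084 and 48453 CPM against 39243 and 49468 CPM. Camp stood at 30474 and 39340.1 CPM against 33693 and 33844 CPM, Lcn2 at 14718 and 13457 CPM against 12333 and 11839.8 CPM, and Cd177 at 2631 and 2179 CPM against 2262 and 2134 CPM, with none called. Lcn2 was lower in both PM mice, with a log2 fold change of -0.28 ± 0.149 and an adjusted p of 0.526 by edgeR. Orm1, an acute-phase carrier protein, fell from 161 and 117 CPM to 42.6 and 60.6 CPM, a log2 fold change of -1.48 ± 0.194 (adjusted p = 2.36e-06). It was called under all 18 other choices of fit and gate.

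A few genes of later maturation rose, and several of these calls depended on the Cxcr2 condition. Of 27 tested, 5 were called higher (Ifitm1, Retnlg, Fpr1, Pla2g7, Ccl6) and 1 lower (Fpr2). Pla2g7 had 3 and 1 UMIs with vehicle against 29 and 20 with PM, and could pass the low-count filter only through the PM mice. Of all genes tested, 1.58% were called higher and 0.324% lower. The median of the 27 was 0.15, against -0.01 over all genes tested. Mmp8 stood at 1090.1 and 1200.0 CPM with vehicle and at 2614 and 2137 CPM with PM, a log2 fold change of 1.00 ± 0.163 (edgeR, adjusted p = 0.000124). Retnlg stood at 2132 and 1527 CPM against 4083 and 3003 CPM, a log2 fold change of 0.92 ± 0.180 (adjusted p = 0.00457). Ly6g stood at 745 and 767 CPM against 1287 and 1142 CPM, a log2 fold change of 0.63 ± 0.163 (adjusted p = 0.0256). In each of the 3 genes the PM mice were above both vehicle mice. Without the Cxcr2 condition the log2 fold changes were 0.03 for Mmp8, -0.22 for Retnlg and 0.33 for Ly6g, and none was called. With the gate applied at 3000 UMIs per cell they were 0.50, 0.22 and 0.29. Ly6g was also not called in a fit with replicate number as a block (0.62, adjusted p = 0.0631 by edgeR). DESeq2 did not call Ly6g either (0.60, adjusted p = 0.312). Fpr1, a receptor for formylated peptides, stood at 41.0 and 52.6 CPM against 100 and 87.0 CPM, and its call was lost without that condition. Its paralogue Fpr2 went the other way, from 1337 and 1116 CPM to 698 and 764 CPM, a log2 fold change of -0.80 ± 0.159 (adjusted p = 0.00168), and was also called, at -0.83, without the Cxcr2 condition. The chemokine gene Ccl6, at 19.8 and 27.2 CPM against 64.4 and 43.1 CPM, was called with and without that condition but not by DESeq2 or with the gate at 3000 UMIs per cell, at log2 fold changes of 1.11, 0.95, 1.10 and 1.16. S100a6, a calcium-binding protein, stood at 3007 and 2566 CPM against 6004 and 4587 CPM, a log2 fold change of 0.88 ± 0.162 (adjusted p = 0.000835), against 0.28 without the Cxcr2 condition. The rise of Ifitm1, 1.74 on the log2 scale, was 0.74 without the Cxcr2 condition and 1.23 with the gate at 3000 UMIs per cell. It was called in neither (edgeR, adjusted p = 0.242 and 0.523). That of Pla2g7, 2.69, was 1.42 and not called without the Cxcr2 condition (edgeR, adjusted p = 0.194).

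**Figure D4:**
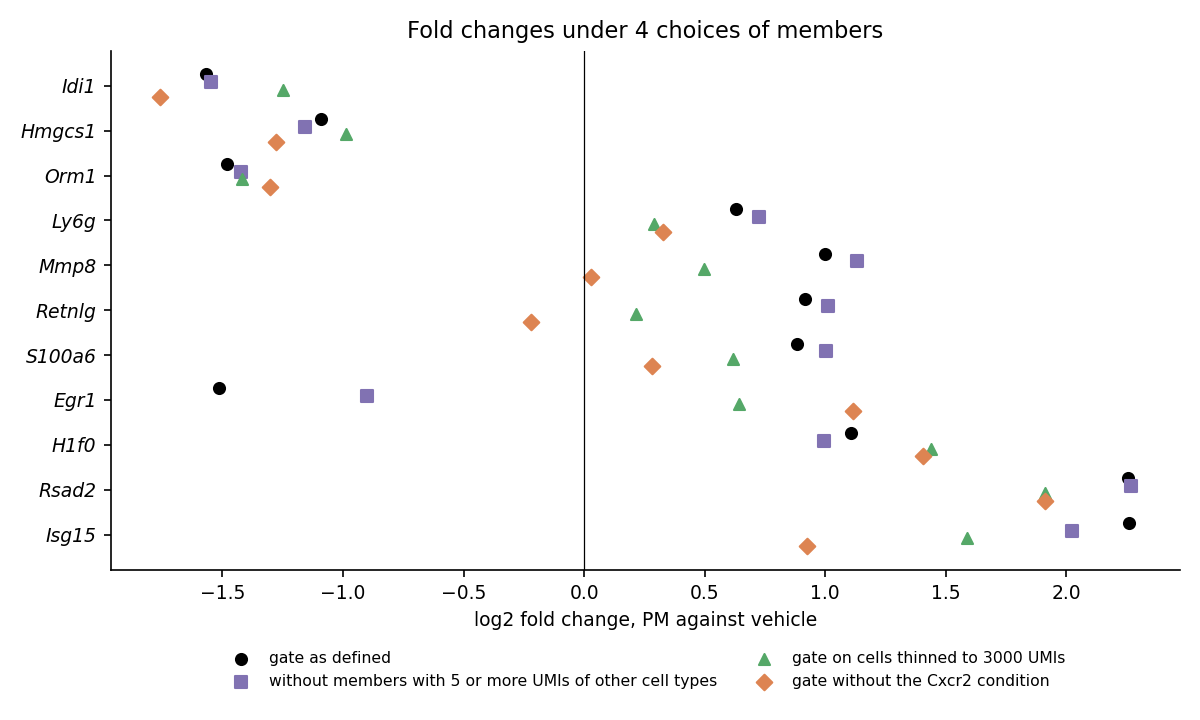
Log2 fold change, PM against vehicle, of selected genes under 4 choices of members, 1 symbol per choice. The sterol genes, Orm1, H1f0 and Rsad2 keep their direction and at least 0.9 in size, Mmp8, Retnlg, Ly6g and S100a6 shrink when the Cxcr2 condition is removed (Retnlg to below 0), and Egr1 changes sign.

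Among called genes with a mean of 20 CPM or more, the hemoglobin genes Hba-a2 and Hbb-bt had the largest rises, with log2 fold changes of 3.56 and 3.39, and they are described with the transcripts of other cell types. The next were interferon genes and genes of mixed roles. Zfp36l1 encodes an RNA-binding protein that destabilises messengers and lies at chr12:80107754-80113013 (GRCm38, minus strand). It stood at 14.1 and 4.39 CPM with vehicle and at 73.1 and 55.5 CPM with PM, a log2 fold change of 2.91 ± 0.359 (edgeR, adjusted p = 3.67e-06). Basp1, a membrane-associated signalling protein, stood at 5.66 and 9.65 CPM against 54.6 and 46.0 CPM. Tesc, the calcium-binding protein tescalcin, stood at 5.66 and 9.65 CPM against 44.8 and 43.1 CPM. Col5a1, a collagen chain, stood at 18.4 and 7.89 CPM against 66.6 and 65.0 CPM. Myadm, a membrane protein of myeloid cells, rose from 38.2 and 33.3 to 156 and 158 CPM, a log2 fold change of 2.08 ± 0.204 (adjusted p = 4.54e-09), the smallest adjusted p among these 12 rises. Ankrd33b, Hip1 (a clathrin adaptor) and Selenop (selenoprotein P) rose with log2 fold changes of 2.10, 2.15 and 2.06. Hip1 stood at 8.48 and 6.14 CPM against 33.3 and 32.9 CPM, and Selenop at 5.66 and 10.5 CPM against 42.6 and 32.2 CPM. Zfp36l1, Basp1, Tesc, Col5a1, Hip1 and Selenop were each at 7.89 CPM or less in 1 vehicle mouse. The vehicle mice alone could therefore not have passed these genes through the low-count filter. Basp1, Tesc, Col5a1 and Myadm were called under all 18 other choices, Zfp36l1 and Hip1 under 17, and Ankrd33b was not called without the Cxcr2 condition (log2 fold change 0.36). Without that condition the log2 fold changes of Zfp36l1, Basp1, Hip1 and Myadm shrank to 1.62, 1.11, 0.86 and 1.38.

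Linker histone genes rose. H1f0, the replication-independent H1.0, stood at 39.6 and 35.1 CPM with vehicle and at 70.4 and 98.6 CPM with PM. Both PM mice were higher, and the log2 fold change was 1.11 ± 0.226 (edgeR, adjusted p = 0.0022). Hist1h1c stood at 87.7 and 118 CPM against 160 and 221 CPM, a log2 fold change of 0.80 ± 0.193 (adjusted p = 0.0153). Without members holding UMIs of other cell types Hist1h1c was at 0.69 and H1f0 at 1.00, with adjusted p of 0.0906 and 0.0458 by edgeR. DESeq2 called neither H1f0 (log2 fold change 1.09, adjusted p = 0.436) nor Hist1h1c (0.78, adjusted p = 0.671). Of 14 histone genes tested, these 2 were called higher and none lower, against 1.58% and 0.324% of all genes tested. The HDAC genes themselves were not called: Hdac1 stood at 58.0 and 57.9 CPM against 44.8 and 68.0 CPM. Of 15 genes of HDACs and their partner proteins none passed in either direction, where 1.9% of all genes tested did. Il1rn, the interleukin-1 receptor antagonist, rose from 35.3 and 63.2 to 141 and 171 CPM, a log2 fold change of 1.52 ± 0.214 (adjusted p = 3.2e-05), and was called under all 18 other choices, at 0.93 without the Cxcr2 condition. Btg2, an antiproliferative gene, rose from 136 and 155 to 278 and 292 CPM, a log2 fold change of 0.90. It was not called without the Cxcr2 condition (0.48), with the gate at 3000 UMIs per cell (0.43) or by DESeq2 (0.87). Crip1, a LIM protein, and Anxa6, an annexin, rose by 1.73 and 1.72 on the log2 scale. DESeq2 called neither, at 1.72 and 1.71, and Anxa6 was not called without the Cxcr2 condition (0.82, adjusted p = 0.0823 by edgeR). Pcp4, a calmodulin-binding protein gene singled out after its values were seen, had no UMI in either vehicle mouse and stood at 16.9 and 19.0 CPM with PM.

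Other falls were in genes of mixed roles. Egr1, an immediate-early transcription factor, stood at 53.7 and 36.0 CPM with vehicle and at 10.4 and 22.7 CPM with PM, a log2 fold change of -1.51 ± 0.316 (edgeR, adjusted p = 0.00372). Its sign depended on the gate: the log2 fold change was 1.12 without the Cxcr2 condition and 0.64 with the gate at 3000 UMIs per cell, neither of them called. It was also not called without the members that held UMIs of other cell types (-0.90, adjusted p = 0.816 by edgeR). Sod2, mitochondrial superoxide dismutase, fell from 31.1 and 30.7 to 15.8 and 9.499 CPM, and was not called without the Cxcr2 condition. Psmd6, a proteasome subunit, fell from 59.4 and 50.9 to 28.4 and 24.1 CPM, a log2 fold change of -1.10, against -0.52 without the Cxcr2 condition. Dnajc8, Fam98b, Tatdn2 and Tbc1d24 fell by 0.87, 1.10, 1.01 and 0.97 on the log2 scale, and each missed the threshold in 6 or more of the 18 other choices.

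Several groups held no called gene. Of all genes tested 1.9% were called, so no call in lists this short is close to the overall share. None of 28 transcription factor genes, 8 NADPH oxidase genes, 21 growth factor and homing receptor genes, 14 BCL2 family and p53 genes or 15 class I major histocompatibility genes passed in either direction. Their medians were -0.01, -0.09, 0.05, 0.10 and 0.34. Of the 15 class I genes, 13 had a positive log2 fold change and 11 were higher in PM without overlap, against 23.4% of all genes tested. The 12 glucocorticoid-responsive genes, 6 circadian genes, 11 S phase genes and 17 G2/M genes tested had none either. Of 76 oxidative phosphorylation genes 1 was called lower (Ndufb1-ps) and 11 had a positive log2 fold change, with a median of -0.23, and 31 were lower in PM without overlap, against 14.1% of all genes tested. Of 81 ribosomal protein genes 1 was called lower (Rps29), with a median of -0.10. Over all genes tested 0.324% were called lower, and the median was -0.01. The primary granule list had 2 of 15 called higher, against 1.58% of all genes tested. These were Elane and Nkg7, the latter also a gene of cytotoxic lymphocytes. Nkg7 stood at 2.83 and 1.75 CPM against 25.1 and 15.3 CPM, and could pass the low-count filter only through the PM mice. Elane, with 6 and 7 UMIs with vehicle, could not pass it on the vehicle mice alone. Elane stood at 8.48 and 6.14 CPM against 31.1 and 21.9 CPM, where cycling precursors averaged 4274 ± 844 CPM. Its call was lost without the Cxcr2 condition, with the gate at 3000 UMIs per cell, without members holding UMIs of other cell types and by DESeq2 (adjusted p = 0.133, 0.185, 0.182 and 0.79), with log2 fold changes of 1.35, 3.43, 1.56 and 1.82 against 1.86. Its share of members was not above that in B cell barcodes, as given with the markers. Nkg7 was not called by DESeq2 (log2 fold change 3.13 against 3.14 by edgeR, adjusted p = 0.269 by DESeq2).

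**Figure D5:**
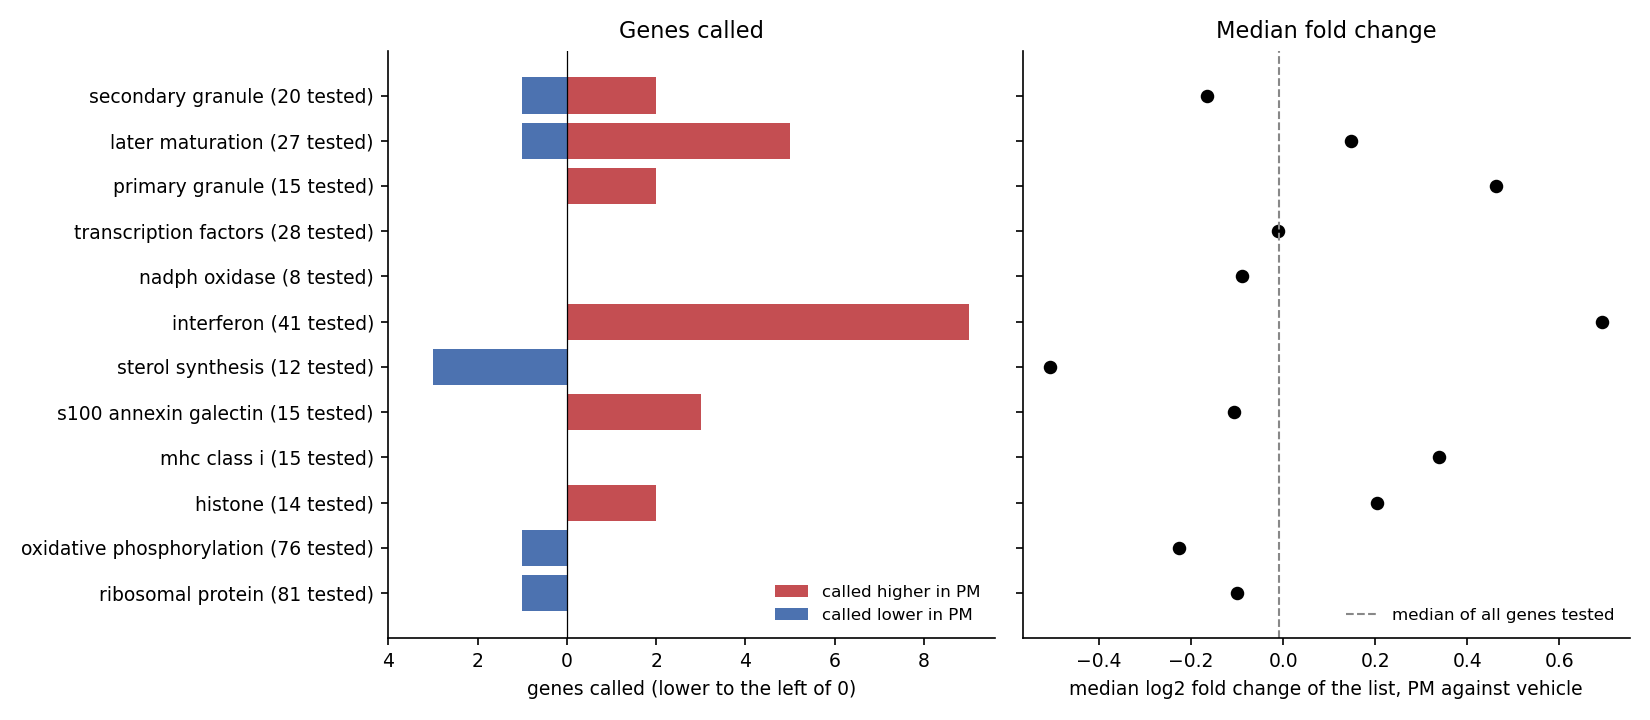
Left, number of genes called higher (right of 0) and lower (left of 0) in PM for 12 gene lists, with the number tested. Right, median log2 fold change of each list and, dashed, of all genes tested. The interferon list has the most calls, 9 higher, and the sterol list, drawn up after values were seen, 3 lower. Of all genes tested, 1.58% were called higher and 0.324% lower.

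Erythroid, B cell and plasma cell transcripts were higher in the members of both PM mice. This was not particular to members. The summed lists were also higher in both PM mice in Cxcr2-positive and mature cells, and in precursors except for the plasma cell list. Erythroid genes summed to 52.8 and 106 against 1096 and 1549 CPM in Cxcr2-positive cells, and to 205 and 334 against 496 and 1681 CPM in mature cells. In members the 9 erythroid genes summed to 58.0 and 125 CPM with vehicle and to 631 and 1377 CPM with PM, with Hba-a2 the most abundant. The 8 B cell genes summed to 42.4 and 111 CPM against 268 and 194 CPM, led by Ighm. The 8 plasma cell genes summed to 414 and 283 CPM against 4544 and 492 CPM, where Igkc in PM mouse 1 alone was at 2954 CPM. Hba-a2, Hbb-bt, Ms4a1, Ighd and Cd79b were called higher, 2 of 5 erythroid genes tested and 3 of 6 B cell genes. Of all genes tested 1.58% were called higher. Ms4a1, with no UMI in either vehicle mouse, and Ighd, with 1 and 2, could pass the low-count filter only through the PM mice. The same holds for Cd79b, at 7.07 and 7.02 CPM with vehicle, and Hbb-bt, at 5.66 and 7.02 CPM. No plasma cell gene of 5 was called. The monocyte list summed to 1282 and 1159.6 CPM against 1658 and 1563 CPM, led by Ly6c2 with Csf1r at 0 by the gate. The dendritic list summed to 187 and 102 CPM against 331 and 93.5 CPM, led by Cd74. The progenitor list was at 46.7 and 37.7 CPM against 47.5 and 43.8 CPM, led by Kit. The T and NK cell, eosinophil and basophil, megakaryocyte and stromal lists were each at 28.1 CPM or less in every mouse, led by Cd3d, Ms4a2, Gp1bb and Cxcl12. Ncr1, Xcr1, Igkv10-96, Mecom, Adipoq, Cdh5 and Emcn of these lists had no UMI in any mouse. Barcodes with 5 or more UMIs of one such list were 19 and 17 members in the vehicle mice and 79 and 40 with PM, or 13.97% and 9.94% against 20.4% and 13.3%, so the groups overlapped in this share. Without them, 71 genes were called higher and 10 lower, 68 and 9 of them shared with the full set. These barcodes were chosen on the listed transcripts, so lower levels of those genes without them follow from the choice. Hba-a2 was then at a log2 fold change of 0.95, and Hbb-bt, Ms4a1, Ighd and Cd79b were below the filter on low counts and were not tested. Idi1, Hmgcs1, Hsd17b7, Orm1, Rsad2, H1f0, Zfp36l1 and Mmp8 were still called.

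The effect of PM was compared with that in gated mature neutrophils by testing the interaction in edgeR with mouse as a block. It differed for 141 of 9516 genes, 1.48%, of which 82 had the more positive effect in members. The count was 289 without vehicle mouse 2, 89 without PM mouse 1 and 50 by DESeq2. Zfp36l1 stood at 170 and 112 CPM against 125 and 133 CPM in mature cells, and its effect was 3.05 ± 0.352 higher in members on the log2 scale (adjusted p = 7.49e-06). Ifitm1, an interferon-induced membrane protein, stood at 43.8 and 18.4 CPM against 97.2 and 104 CPM in members and at 3061 and 2453 CPM against 2493 and 1911 CPM in mature cells, a difference of 2.10 ± 0.261 (adjusted p = 1.28e-05). Both genes stayed below their levels in mature cells in every mouse. Asprv1, a skin-type aspartic protease, stood at 72.1 and 18.4 CPM against 388 and 314 CPM in members and at 679 and 394 CPM against 1323 and 1322 CPM in mature cells, with a difference of 1.80 ± 0.255 (adjusted p = 7.4e-05). Cxcl2, a neutrophil chemokine, and Cd14, the lipopolysaccharide co-receptor, had differences of 2.52 and 2.19, and in members both were high only in PM mouse 2 (70.9 and 63.6 CPM, against 12.01 and 19.7 CPM in PM mouse 1). Rpl36al, a ribosomal protein gene, stood at 131 and 149 CPM against 121 and 99.4 CPM in members and at 23.3 and 32.4 CPM against 67.2 and 49.7 CPM in mature cells, with a difference of -1.44 ± 0.205 (adjusted p = 7.12e-05).

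Against gated cycling precursors the effect differed for 45 of 10252 genes, 0.439%, of which 35 had the more positive effect in members. The count fell to 10 without vehicle mouse 2 and to 12 by DESeq2. Fpr2 fell in precursors from 122 and 112 CPM to 29.3 and 33.9 CPM, more steeply than in members, with a difference of 1.20 ± 0.161 (edgeR, adjusted p = 6.74e-07). Trp53inp2, an autophagy regulator, stood at 38.5 and 39.9 CPM against 19.98 and 14.8 CPM in precursors and at 271 and 210 CPM against 270 and 269 CPM in members, a difference of 1.39 ± 0.190 (adjusted p = 7.76e-07). Xdh, xanthine dehydrogenase, stood at 90.1 and 95.4 CPM against 58.6 and 57.1 CPM in precursors and at 336 and 314 CPM against 415 and 463 CPM in members. St3gal5, a ganglioside synthase, stood at 158 and 185 CPM against 64.9 and 61.6 CPM in precursors and at 916 and 887 CPM against 629 and 737 CPM in members. The last 2 differed by 1.16 and 1.08 on the log2 scale, each higher in members than in precursors. The hemoglobin genes Hba-a2 and Hbb-bt had the smallest adjusted p among genes at 20 CPM or more in both populations, with differences of 3.15 and 2.88.

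Against the Cxcr2-positive cells that met all other conditions the effect differed for 75 of 9732 genes, 0.771%, in an interaction test added after seeing the data. The count was 43 without PM mouse 1 and 15 by DESeq2. Egr1, Mmp8 and S100a6 were looked at because their fold changes moved when the Cxcr2 condition was dropped, which adds these same cells, so their differences are a description with no test. Egr1 stood at 13.3 and 7.70 CPM against 23.6 and 45.7 CPM in those cells, and its effect was -3.11 ± 0.300 (SE) in members relative to them on the log2 scale. The PM effect on Mmp8 was 0.94 ± 0.082 higher in members, where the Cxcr2-positive cells stood at 3330.5 and 3413 CPM against 3918 and 3712 CPM. That on S100a6 was 0.56 ± 0.076 higher. No difference was called for Idi1 (0.16 ± 0.303), Orm1 (-0.25 ± 0.187), Rsad2 (0.22 ± 0.333) or H1f0 (-0.39 ± 0.248), each with its SE on the log2 scale. The Cxcr2-positive cells stood at 49.1 and 40.7 CPM of Idi1 against 12.5 and 17.4 CPM, and at 31.8 and 21.5 CPM of Rsad2 against 122 and 109 CPM. Idi1 and Rsad2 were also called between PM and vehicle within the Cxcr2-positive cells, and Mmp8 and S100a6 were not.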

How the data were processed

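The authors deposited raw UMI counts per gene and barcode from 10x 3' libraries of 4 mice, made with Cell Ranger 6.0.1 per the file headers. The study's methods name GRCm38 and the submitters' processing notes GRCm39; 32235 of 32285 gene identifiers matched GENCODE M21 (GRCm38), which gave the positions. The cell filter asked for 300 or more detected genes and no more than 20% mitochondrial UMIs, which kept 9261 and 7826 of vehicle, 13387 and 9269 of PM, with medians of 6067, 5330.5, 4717 and 4805 UMIs. Doublets were called by comparing cells with simulated ones and were left out only as an alternative. Counts were summed per mouse over the members and tested in edgeR 4.0.16 (TMM, filterByExpr, quasi-likelihood) in R 4.3.3, with DESeq2 1.42.0 as an alternative. The p-values measure the spread between 2 mice per group. Members and lists were chosen with earlier results of these data known. Named genes were the gate genes and label markers, the 12 largest rises and falls at a mean of 20 CPM or more and non-overlapping mice (hemoglobin, antigen receptor and mitochondrial genes and Gm or Rik gene models left out), per list the 4 most abundant and up to 6 called, and per interaction the 6 smallest adjusted p at 20 CPM in both; others are said to have been singled out or stand beside a count. On simulated counts, 56% of genes changed by a log2 of 1 and 88.9% of those changed by 2 were recovered, with 11 false calls among 6796 genes. A few genes are not reported here and were left out of lists, figures and named genes, though not of the fits. Motifs were searched in RefSeq promoters.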

Additional observations from a re-analysis of the deposited data

Results flagged for a closer look

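Each result here is an effect of PM that differed between members and another gated population by an edgeR interaction test. Against mature neutrophils 141 genes differed. Among genes at a mean of 20 CPM or more in both populations, the 6 with the smallest adjusted p were Zfp36l1 (difference of 3.0458 on the log2 scale, higher in members), Ifitm1 (2.1014), Cxcl2 (2.5242), Rpl36al (-1.4425), Asprv1 (1.8034) and Cd14 (2.1871). Against cycling precursors 45 genes differed. Among genes at a mean of 20 CPM or more in both populations, the 6 with the smallest adjusted p were Hba-a2 (3.1476), Hbb-bt (2.875), Fpr2 (1.1953), Trp53inp2 (1.3879), Xdh (1.1581) and St3gal5 (1.0773). Hba-a2 and Hbb-bt are erythroid transcripts. Without members holding UMIs of other cell types, the rise of Hba-a2 in members shrank and Hbb-bt was below the low-count filter.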

How the results depend on the processing

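The share of kept cells in the gate stayed higher in PM on average under every alternative, by 0.879 (without vehicle mouse 1) to 2.51 percentage points. The base differed: the means of vehicle and PM were 1.83% and 3.06% of kept cells in the gate as defined, 7.60% and 8.80% of cells with 3000 UMIs, with 2 of 4 vehicle-PM pairs higher, and 20.3% and 22.8% without the Cxcr2 condition, with 3 of 4. Genes called higher and lower were 24 and 4 by DESeq2, 256 and 68 with the gate at 3000 UMIs, 694 and 242 without the Cxcr2 condition, 37 and 3 with Fcnb at 0, and 71 and 10 without members holding UMIs of other cell types; without a filter on low counts 34 were lower. Leaving out 1 mouse gave 56 to 127 higher and 25 to 37 lower. Vehicle and PM share replicate numbers, but the deviations of same-numbered mice did not correlate (Pearson r = -0.00 over 6796 genes). A fit with the replicate block called 107 and 20, of which 96 and 17 were shared with the main fit. Genes that differed from mature cells were 50 by DESeq2, 282 without the filter and 89 to 289 when 1 mouse was left out; from precursors, 12 by DESeq2 and 10 to 60. Egr1 reversed to 0.64 with the gate at 3000 UMIs and 1.12 without the Cxcr2 condition, and Camp, never called, ranged from -0.34 to 0.14 when 1 mouse was left out, positive only without vehicle mouse 2. Retnlg reversed to -0.22 without the Cxcr2 condition. Of 1097 repeats over 62 genes that were called and fall under the naming rule or were singled out, 866 kept direction and call, 228 lost the call and 3 reversed. Of the lost calls 44 were lost with DESeq2, while another normalization (RLE) or no filter on low counts lost none. The cause of the lost calls and reversals was not tested. Dropping the Cxcr2 condition, leaving out members with UMIs of other cell types and the minimum of 2000 UMIs were chosen after seeing the data. Summed members held 707294 to 1831895 UMIs per mouse, which limits genes of few UMIs.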
